A study of Homo sapiens with 16 samples.

Results

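Malign_2 is 1 of the 2 clusters that the deposited annotation gives to the malignant cells of LPA1-T22 (T22), a mouse mammary tumor line passaged as tissue between animals. Its members were taken by name, as the cells annotated Malign_2, and numbered 3088 of 48824 cells once every cell barcode shared between the long-term pools had been counted at its deepest copy. Of these, 1352 of 25723 cells came from the 8 long-term pools and 1736 of 15094 from the 4 short-term T22 pools. None of 8007 cells in the 4 short-term T127 pools carried the name, which allows a share of up to 0.0375%. As deposited the cluster held 3096 cells of 53946. In the long-term pools 14 Malign_2 barcodes were found in more than 1 pool, all copies of 6 of them were Malign_2, and 8 shallower copies were left out.

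T22 and LPA1-T127 (T127) are tumors of transgenic mice with the LPA1 receptor in the mammary epithelium, without a BRCA1 or BRCA2 mutation, and chunks of them were grown in the mammary fat pad of female FVB mice that had been bought at 6 weeks of age. The mice received olaparib, which inhibits the DNA repair enzyme PARP (50 mg/kg by mouth each day), or vehicle, for 4 or 8 days in the short-term groups and for 20 days in the long-term group, where T22 and T127 were grown alone or on opposite sides of 1 animal. Tumors were dissociated and tagged with oligonucleotides, the tagged cells were mixed, and dead cells were removed before droplet capture, so every pool mixes treatments, and the files used here do not link a cell to its tumor. The sample records name the organism as human, while the source label names FVB mouse and the files list mouse genes. The labels do not say which tumors a pool holds or whether pools share them. Treatments were therefore not compared, no p-value was computed, and ranges over pools are given as the spread. Levels are UMIs (unique molecular identifiers, 1 for each captured mRNA) summed over the cells of a cluster, per 1000000 UMIs of that cluster (CPM, counts per 1000000), and intervals in parentheses are exact 95% intervals that cover counting error only.

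Malign_2 was compared with Malign_3, the other T22 malignant cluster (907 long-term and 218 short-term cells), and with my_CAF, a cluster whose name is that of myofibroblastic fibroblasts (117 and 129 cells). Its mural genes, those of pericytes and vessel muscle, summed to 14331 and 20170 CPM and its fibroblast genes to 7036 and 9412 CPM, with Rgs5 and Col3a1 the highest of each list, so the markers do not set it apart from mural cells and it is called by its annotated name only. Malign_2 cells made up 3.73% to 6.93% of a long-term pool, with at most 228 cells, and 10.8% to 12.4% of a short-term pool, with 407 to 455 cells. The median cell of a pool had 14583.5 to 17783.5 UMIs in the long-term and 23653 to 26033 in the short-term pools. Malign_3 cells were nearly as deep, at 12915 to 16529 and 19975 to 23644 UMIs, and my_CAF cells shallower, at 3992 to 7857 and 9080 to 12829.5. Because the clusters were made from the same genes, the differences below describe what the cluster names hold and are no test of them.

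The mammary duct has an inner layer of luminal cells, which carry the simple keratins and tight junctions, and an outer basal layer of myoepithelial cells, which carry Krt5, Krt14 and the p63 factor and contract with smooth muscle actin (Acta2) to eject milk. Myofibroblasts and the mural cells that wrap small vessels use the same contractile proteins without being epithelial. In an epithelial-mesenchymal transition, factors of the Snai, Zeb and Twist families lower the junction genes and raise mesenchymal ones. Contractile genes in a tumor cell can therefore be read only beside keratins, junction genes and these factors.

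Acta2 was the highest of the 4 marker genes relative to the other tumor cluster. In Malign_2 its long-term level had a lowest pool of 5270, a median pool of 6846 and a highest pool of 9661 CPM, and its short-term pools were at 5376, 5038, 3838 and 4413 CPM. In Malign_3 the long-term pools ran from 13.1 to 41.5 CPM and the short-term pools from 16.2 to 30.2 CPM. The groups did not overlap, and the summed level was 321-fold (289 to 357) higher in Malign_2 in the long-term and 221-fold (184 to 269) higher in the short-term experiment. The Acta2 level of my_CAF was close to that of Malign_2: summed over cells it was 7437 CPM against 7275 in the long-term and 3003 against 4685 in the short-term experiment, and Malign_2 and my_CAF ranked in the first 2 places of 22 and 19 clusters. The next cluster, i_CAF, had 198 and 482 CPM.

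Tagln, which encodes the actin-binding protein transgelin, was at 514, 768 and 1079 CPM in the lowest, median and highest long-term pool of Malign_2 and at 731, 722, 444 and 566 CPM in the short-term pools. Its summed level exceeded that of Malign_3 by 43.3-fold (38.7 to 48.7) and 28-fold (23.3 to 33.9), with no pool overlapping. The short-term log2 ratio of Tagln, 4.75, was 4.12 without pool 1 and 5.65 without pool 2. It was below that of my_CAF, by 3.43-fold in the long-term and 2.29-fold in the short-term experiment. Pdpn, the membrane protein podoplanin, was nearly even between pools of Malign_2, with 171, 205 and 241 CPM as the lowest, median and highest long-term pool and 222, 217, 215 and 221 CPM in the short-term pools. It was 10.7-fold (9.55 to 12.1) and 7.85-fold (6.67 to 9.31) above Malign_3. In my_CAF no Pdpn UMI was found in the long-term pools, which puts Malign_2 at least 51.4-fold higher at a floor of 3 UMIs over the cluster, and 5 UMIs were found in the short-term pools, a ratio of 77.5 (33.2 to 239).

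Epcam, the epithelial adhesion molecule, separated the cells from my_CAF and, in the other direction, from Malign_3. Malign_2 had 861, 914 and 1004 CPM in its lowest, median and highest long-term pool and 735, 682, 844 and 742 CPM in its short-term pools. The Malign_3 level was 3.02-fold (2.97 to 3.07) and 2.90-fold (2.84 to 2.96) higher, and my_CAF held 2 UMIs in the long-term pools, a ratio of 342 (94.7 to 2825), and 9.59 CPM in the short-term pools, a ratio of 78.1 (48.8 to 134). Without long-term pool 8 the log2 ratio of Epcam to my_CAF went from 7.96 to 8.56. Among all long-term clusters Epcam was also found in the myeloid clusters CD14-IL1B (992 CPM) and CD14-PF4 (851 CPM), whose part in the comparison was not tested. Each of the 4 genes was thus present in the cluster in every pool, and Malign_2 stood with my_CAF in Acta2 and closer to Malign_3 in Epcam. The plot of marker levels by pool shows this beside Krt5, Krt14, Krt18, Dcn and Rgs5.

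**Figure D1:**
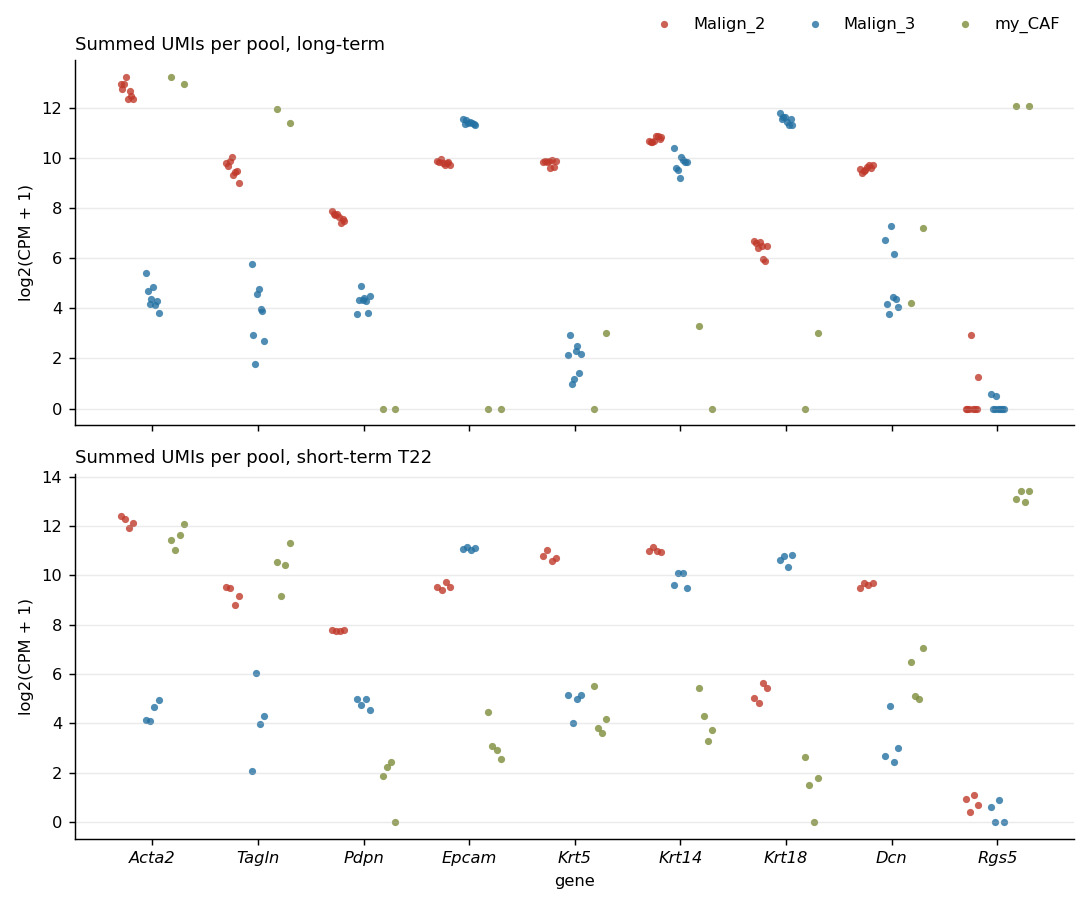
Level of 9 genes, as log2(CPM + 1) on the vertical axis, in each pool with at least 20 cells of the cluster; points are pools of Malign_2, Malign_3 and my_CAF, with the long-term and short-term T22 pools in separate panels. Acta2 and Tagln place Malign_2 beside my_CAF, Epcam and Krt14 place it beside Malign_3, Krt18 is 34.5-fold and 43.2-fold lower than in Malign_3, and Rgs5 is at 1.28 and 0.734 CPM in Malign_2 against 4203 and 9746 CPM in my_CAF.

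Both marker classes were found in the same cells. With every cell thinned to 3000 UMIs, which all Malign_2 cells reached, 70.8% (68.3 to 73.2) of long-term and 65.3% (63.0 to 67.5) of short-term Malign_2 cells had a UMI of both Epcam and Acta2, and pools ranged from 60.8% to 75.4% and from 63.0% to 68.1%. Cells with Epcam alone made up 12.2% and 12.8%, cells with Acta2 alone 16.1% and 20.4%, and cells with neither 0.962% and 1.44%. The same share was 4.74% and 7.34% in Malign_3, and 1.08% and 3.60% in the my_CAF cells deep enough to be thinned (93 and 111). B cells, which should lack both, gave 0 of 44 cells (allowing up to 6.82%) and 1 of 17 cells (5.88%). These were the B cells with at least 3000 UMIs, and 265 of 309 and 21 of 38 were left out as too shallow. Over all B cells the median depth of a pool was 1499 to 2193.5 and 2686 to 3472.5 UMIs. Without thinning the shares were 92.0% and 95.4% in Malign_2, 20.2% and 37.2% in Malign_3, 1.71% and 8.53% in my_CAF and 0.324% and 5.26% in B cells. No doublet caller was run here, and dropping from each pool the 5% of cells with the most UMIs moved the share in Malign_2 by less than its spread between pools.

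Against Malign_3, a gene was counted as higher or lower when the log2 ratio of (CPM + 1) was at least 2 (4-fold) and had the same sign in every pool with 20 cells of both clusters, among genes with at least 10 CPM in either cluster. Of 7850 genes in the long-term experiment 346 were higher in Malign_2 (4.41%) and 303 lower (3.86%), and of 8832 in the short-term experiment 476 were higher (5.39%) and 382 lower (4.33%). The long-term and short-term calls shared 320 higher genes (92.5% of the first list and 67.2% of the second) and 266 lower genes (87.8% and 69.6%), and 0 genes were called in opposite directions. The median log2 ratio over all genes tested was -0.02 and -0.06. A gene that reached 10 CPM in a single cluster could be called only in favor of that cluster. Counts and medians of the lists below therefore lean toward the cluster where a list is high, and they are descriptive. Acta2, Krt5, Myl9, Gm32585, Fabp4, Cnn1, Mylk, Igfbp5, Moxd1, Gas1, Myh11 and Igfbp3 were the 12 with the largest long-term ratio among those higher in both experiments. Fxyd2, Cldn4, Hp, Edn1, Dmkn, Ptprz1, Abcc3, Tesc, Cxcl17, Wfdc12, Itprid1 and Kit were the 12 at the other end.

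Many contractile genes were higher. Of 22 genes of this list, 16 were measured in the long-term and 17 in the short-term experiment, 9 and 11 were higher, 0 were lower, 7 and 6 were not called, and the median log2 ratio was 3.10 and 3.97. Only 9 and 10 of them reached 10 CPM in Malign_3, so the other measured genes could be called only as higher. Myl9, a regulatory light chain of myosin, had 626, 782 and 945 CPM in its lowest, median and highest long-term pool and 620, 605, 444 and 520 CPM in its short-term pools, against 3.55 and 3.43 CPM summed over Malign_3, a 220-fold (169 to 291) and 160-fold (101 to 270) difference. Cnn1, the actin-binding calponin, was at 244, 322 and 407 CPM and at 365, 353, 237 and 274 CPM in the same order, 152-fold and 85.3-fold above Malign_3. The smooth muscle myosin heavy chain Myh11 had 81.3 and 197 CPM in Malign_2, and Malign_3 held 3 UMIs of it in all long-term pools, a ratio of 428 (146 to 2077). Mylk, the kinase that switches on myosin light chains, was 206-fold and 148-fold higher. The oxytocin receptor Oxtr, through which milk ejection is triggered, had 14.6 CPM in the short-term Malign_2 cells and no UMI in Malign_3, at least 25.6-fold less. Of 15 mesenchymal effector genes 9 and 8 were measured, 3 and 5 were higher and 1 and 1 lower, with a median log2 ratio of 1.81 and 2.34. Pdpn, Sparc and Mmp2 were higher in both experiments, and the matrix protein Sparc was at 4836 and 4440 CPM against 369 and 292 CPM. The matrix glycoprotein gene Tnc was lower in both, with a short-term log2 ratio of -6.04 that was -5.14 without pool 2.

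Basal keratins and adhesion genes were higher too, though not evenly. Of 16 basal epithelial genes, 14 and 13 were measured, 8 and 9 were higher and 1 and 0 lower, with a median log2 ratio of 3.08 and 3.47. Krt5 ran at 790, 937 and 986 CPM in the lowest, median and highest long-term pool and at 1740, 2070, 1533 and 1671 CPM in the short-term pools, 295-fold (223 to 399) and 59.2-fold (50.6 to 69.7) above Malign_3. Its keratin partner Krt14 had 1611, 1718 and 1926 CPM and 2037, 2255, 2018 and 1998 CPM, and exceeded Malign_3, where it was at 927 and 899 CPM, only 1.87-fold and 2.32-fold, which is under the threshold. Trp63, the gene of p63, was at 76.4, 88.0 and 103 CPM and at 166, 187, 153 and 169 CPM, against 0.697 and 0.954 CPM in Malign_3. Krt14 was therefore shared by both T22 clusters, whereas Krt5 and Trp63 belonged to Malign_2. Col17a1, the collagen of hemidesmosomes, was 63.2-fold and 51.3-fold higher, P-cadherin (Cdh3) 32.7-fold and 35.6-fold, the laminin receptor subunit Itga6 8.52-fold and 8.72-fold, and Lgals7, a galectin of stratified epithelia, 33.4-fold and 43.3-fold. The gene counted as lower in the long-term experiment, Krt6a, had a log2 ratio of -3.73 and lost its call without pool 1, where the ratio was -3.05 and its Malign_3 level under 10 CPM.

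Simple keratins and tight junctions moved in the opposite direction. Of 25 such genes, 23 and 24 were measured, 13 and 14 were lower in Malign_2 and 0 higher, with a median log2 ratio of -2.17 and -2.82. Krt18 had 58.7, 88.8 and 103 CPM in the lowest, median and highest long-term pool of Malign_2 and 31.3, 27.6, 49.3 and 42.4 CPM in the short-term pools, while Malign_3 had 3022 and 1612 CPM, 34.5-fold (33.0 to 36.1) and 43.2-fold (41.0 to 45.5) more. Its partner Krt8 was 8.72-fold and 7.4-fold lower and Krt7 18.9-fold and 12.6-fold lower. The tight junction claudins fell into the same group, with Cldn3 at 39.8 and 26.0 CPM against 1058 and 975 CPM and Cldn4 at 1.62 and 1.19 CPM against 239 and 199 CPM. E-cadherin (Cdh1), the adherens junction protein whose loss marks a full mesenchymal transition, was lower by only 1.74-fold (1.63 to 1.87) and 1.72-fold (1.63 to 1.82), with 65.1 and 161 CPM in Malign_2. Keratins and claudins of the luminal layer were thus far lower than in Malign_3, and Cdh1 and Epcam lower by less than 4-fold.

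Genes of the luminal lineage were divided. Of 22, 15 and 14 were measured, 7 and 7 were lower, 1 and 2 were higher, and the median log2 ratio was -1.80 and -2.25. Kit, the receptor of luminal progenitors, was at 2.68 and 2.31 CPM against 172 and 503 CPM in Malign_3, and Elf5, the factor that directs alveolar differentiation, at 1.02 and 0.859 against 12.1 and 24.4 CPM. The milk protein gene Csn3 went the other way, with 383, 602 and 795 CPM in the lowest, median and highest long-term pool, 461, 431, 603 and 473 CPM in the short-term pools, and 97.4 and 24.6 CPM in Malign_3. Wfdc18, a secreted whey-type protein, was abundant in both clusters, at 10772 and 9715 CPM against 34126 and 34152 CPM.

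Genes of basement membrane, which basal cells lay down, were higher in 8 and 9 of the 16 measured (list of 20, 0 lower, median log2 ratio 2.20 and 2.40). Only 7 and 11 of the list reached 10 CPM in Malign_3, so the other measured genes could be called only as higher. Collagen IV chain Col4a1 was at 757, 801 and 853 CPM in the lowest, median and highest long-term pool and 22-fold above Malign_3, and at 1717, 1938, 1704 and 1733 CPM in the short-term pools, 25.7-fold above. Lama3 and Lamb3, chains of the laminin that anchors epithelium, were 17.1-fold and 6.07-fold higher in the long-term and 9.53-fold and 5.39-fold higher in the short-term experiment. Only 3 and 2 of 15 fibroblast genes reached 10 CPM in Malign_3, so the same limit holds for them. Of these 15 genes 8 and 6 were measured, and 6 and 5 were higher. Among them the small matrix proteoglycan decorin (Dcn) had 685, 775 and 864 CPM and 713, 825, 776 and 835 CPM, with Malign_3 at 12.6 to 158 and 4.36 to 25.1 CPM by pool, so the short-term log2 ratio of Dcn, 6.20, was 6.88 without pool 2. Of 19 genes of cartilage and neural crest, 11 were measured in each experiment and 2 were higher, Col9a1 and Col11a1, while 2 and 3 were lower. Sox10, a factor of neural crest that mammary stem cells also use, was at 82.2 and 137 CPM in Malign_2 and 42.4 and 62.2 CPM in Malign_3, under the threshold.

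Genes of the insulin-like growth factor and Wnt lists were higher in part. Of 12 genes of the insulin-like growth factor (IGF) axis, 8 were measured in each experiment, 4 and 5 were higher and 0 and 1 lower, with a median log2 ratio of 3.15 and 4.47. Igfbp5, an IGF-binding protein, had 4537, 4898 and 5553 CPM in the lowest, median and highest long-term pool and 9068, 9440, 8529 and 9118 CPM in the short-term pools, 81.2-fold and 79.6-fold above Malign_3. Igfbp2, another member, had 1142, 1332 and 1434 CPM and 1132, 1136, 1050 and 1093 CPM, 68.5-fold and 109-fold above. The ligand Igf2 was at 25.3 and 84.2 CPM against 5 UMIs in Malign_3 in each experiment, while the receptor Igf1r was the 1 lower gene. Among 31 Wnt pathway genes, of which 9 and 12 were measured and 2 and 4 were higher, the secreted inhibitors Sfrp1 and Sostdc1 were higher in both experiments, Sfrp1 by 6.41-fold and 6.71-fold and Sostdc1 by 17.2-fold and 17-fold.

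Notch pathway genes were called in both directions. Of 13 Notch pathway genes 7 and 8 were measured: the ligands Jag1, Jag2 and Dll1 were higher in both experiments, and the receptor Notch3 and the feedback inhibitor Nrarp lower in both, with Notch2 lower in the short-term experiment alone. The receptor Notch1, the most abundant of the list in Malign_2, was at 162 and 384 CPM against 83.8 and 163 CPM, 1.93-fold and 2.35-fold above Malign_3 and under the threshold. Jag1 was at 99.9 and 247 CPM, 11.5-fold and 16.6-fold above Malign_3, and Notch3 at 3.15 and 3.17 CPM against 27.8 and 71.7 CPM. Of 28 growth factors 18 and 20 were measured, 7 and 6 were higher and 4 and 4 lower. The cytokine gene Il17b had 1346, 1518 and 1679 CPM and 1249, 1153, 1108 and 1136 CPM, 12.6-fold (12.0 to 13.2) and 11.3-fold (10.4 to 12.4) above Malign_3, and Cck, the gene of the peptide hormone cholecystokinin, had 1859, 2388 and 2939 CPM and 3814, 3718, 3502 and 3520 CPM, 19.3-fold and 22-fold above. The short-term log2 ratio of Cck, 4.45, was 5.26 without pool 1. Hbegf, Btc, Tgfb2 and Gdf15 were lower in both. Of 20 receptor kinases, of which 10 and 13 were measured, Fgfr2, Axl and Ntrk3 were higher and the ErbB family member Erbb3 lower in both, the last at 3.19 and 6.83 CPM against 33.3 and 75.3 CPM.

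Signals to myeloid cells had no common direction. Of 28 such genes 20 and 18 were measured, 2 and 5 were higher and 4 and 5 lower, with a median log2 ratio of -0.05 and 0.23. The neutrophil attractant Cxcl1 was at 10.5 and 3.29 CPM against 222 CPM in Malign_3 in both experiments, and the chemokine Cxcl17 at 6.67 and 6.23 against 389 and 430 CPM. The alarmin Il33 was at 58.0 CPM against 2.28 in the long-term pools, 25.4-fold higher, and at 35.3 CPM against 2 UMIs in the short-term pools. The macrophage growth factor Csf1, at 34.0 and 54.2 CPM, was above Malign_3 (13.4 and 22.5 CPM) by less than the threshold.

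The lists closest to the drug and to growth showed few calls, but lists of their size would hold few at the overall share. Over all genes 4.41% were higher and 3.86% lower in the long-term and 5.39% and 4.33% in the short-term experiment. The counts of calls below are near those shares and do not set these lists apart. Of 28 genes of PARP and homologous recombination repair 7 and 16 were measured and 0 were called, with a median log2 ratio of -0.15 and -0.54. Parp1, the main target of olaparib, was at 10.7 to 17.7 CPM in the long-term and 22.6, 19.6, 25.3 and 22.6 CPM in the short-term pools, 0.952 (0.803 to 1.13) and 0.935 (0.777 to 1.13) times its level in Malign_3. Of 15 S-phase genes 14 and 15 were measured and 0 called (median -0.55 and -0.70). Of 15 genes of G2 and mitosis all were measured, and 1, Ccnb1, was higher in the short-term experiment, with a log2 ratio of 2.04 that was 1.80 or 1.85 when pool 3 or pool 4 was left out. The median of this list was 0.94 and 0.61. Its long-term sum was 1183 CPM (968 to 1568 by pool) in Malign_2 and 605 CPM (431 to 808) in Malign_3. The short-term sums were 1555 CPM (1249 to 1926) and 973 CPM (570 to 1179). No gene was called among 18 and 16 measured genes of antigen presentation and interferon response, nor among 14 and 17 measured p53 targets, and 1 of 15 immediate early genes, Atf3, was lower in both experiments. The antigen presentation and interferon list summed to 11855 and 9644 CPM in Malign_2 against 7057 and 4352 CPM in Malign_3. Long-term pools ran from 11187 to 12567 CPM in Malign_2 and from 6559 to 7861 CPM in Malign_3. Short-term pools ran from 9162 to 10168 and from 3780 to 4898 CPM. The median log2 ratio of this list was -0.32 and 0.51. In the list of 16 hypoxia genes 0 of 13 were called in the long-term and 1 of 12, Egln3, was lower in the short-term experiment, and of 4 drug efflux genes 1 was measured and 0 called. At 3000 UMIs, Mki67, a marker of cycling cells, was found in 12.4% (10.6 to 14.2) and 24.3% (22.3 to 26.3) of Malign_2 cells and 8.38% and 18.8% of Malign_3 cells. The range over long-term pools, 8.77% to 18.8% in Malign_2 and 5.3% to 11.8% in Malign_3, overlapped. Top2a, a second such marker, had the opposite order, at 13.0% (11.3 to 14.9) and 18.5% (16.7 to 20.4) of Malign_2 cells and 14.4% and 22.9% of Malign_3 cells, and its pools overlapped as well.

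A list of genes named for Malign_2 by the study was chosen on these cells and is no independent evidence. All 25 of its genes were measured in both experiments, 9 and 10 were higher than in Malign_3 and 23 higher than in my_CAF. The most abundant of those higher than Malign_3 in the long-term cells, Ecrg4, a secreted peptide precursor, was at 11158 and 9728 CPM against 363 and 155 CPM in Malign_3, a short-term log2 ratio of 5.96 that was 6.64 without pool 1.

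Against my_CAF, calls were more frequent in both directions. Of 8559 genes in the long-term experiment 735 were higher in Malign_2 (8.59%) and 836 lower (9.77%), and of 9392 in the short-term experiment 795 were higher (8.46%) and 988 lower (10.5%). Only 2 long-term pools held 20 my_CAF cells, so the long-term calls rest on those for their direction. The experiments shared 589 higher genes (80.1% and 74.1%) and 700 lower genes (83.7% and 70.9%), and 0 were called in opposite directions. The median log2 ratio over all genes tested was -0.10 and -0.01. Igfbp2, Mia, Ecrg4, Krt14, Aqp5, Apoc1, Thrsp, Cck, Tspan8, Lgals7, Epcam and Il17b had the largest long-term ratios among genes higher in both, and Rgs5, Higd1b, Aspn, Sparcl1, Kcnj8, Gja4, Abcc9, Ebf1, Gjc1, Gng11, Pdgfrb and Cox4i2 among genes lower in both.

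Mural genes had the lowest median ratio of the lists. All 12 were measured and all 12 were lower in Malign_2 in both experiments, with a median log2 ratio of -8.73 and -9.35. Only 2 and 3 of them reached 10 CPM in Malign_2, against all 12 in my_CAF. The others were measured through my_CAF alone and could be called only as lower, so the count is no test. Rgs5, a regulator of G-protein signaling typical of pericytes, was at 4366 and 4421 CPM in the 2 long-term my_CAF pools and at 8801, 10837, 8082 and 11036 CPM in the short-term pools, and Malign_2 had 1.28 and 0.734 CPM in all, 3295-fold and 13286-fold less. The long-term log2 ratio of Rgs5, -10.85, was -11.85 without pool 4. The pericyte receptor Pdgfrb was at 0.595 and 0.21 CPM against 656 and 1313 CPM. Summed over the list, Malign_2 had 235 and 180 CPM, of which the long-term sum was mostly Ndufa4l2 (171 CPM).

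Most measured factors of the epithelial-mesenchymal transition were lower than in my_CAF. Of 9 factors 7 and 8 were measured against my_CAF, 0 were higher and 5 and 7 lower in Malign_2, and Snai2 in both experiments and Twist2 in the long-term one were not called. All measured factors but Snai2 reached 10 CPM in my_CAF alone and so could be called only as lower. The count is therefore no test, and the levels follow. Zeb1 was at 1.11 and 0.566 CPM against 59.3 and 150 CPM, Twist1 at 2.42 and 0.105 against 260 and 206 CPM, and Prrx1 at 2.81 and 0.503 against 571 and 568 CPM. Snai2, which basal mammary cells use normally, was at 67.5, 77.6 and 95.0 CPM in the lowest, median and highest long-term pool and 113, 128, 108 and 122 CPM in the short-term pools. It was 1.37-fold and 1.5-fold above my_CAF, under the threshold, and above Malign_3, where it had 15 and 5 UMIs, by 81.5-fold (49.3 to 146) and 124-fold (53 to 381). It was also the only 1 of the 9 with at least 10 CPM in either T22 cluster. Of the mesenchymal effector genes 14 were measured against my_CAF in each experiment, 1 was higher, Pdpn, and 6 and 9 were lower, with a median log2 ratio of -1.82 and -2.78. Vimentin (Vim), the intermediate filament of mesenchymal cells, was at 1356 and 1200 CPM, 3.42-fold and 2.29-fold below my_CAF.

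Within the contractile list the overlap with my_CAF was partial. Of 19 and 20 genes measured, 1 and 2 were higher, 6 and 4 lower, and the rest within 4-fold or divided between pools, with a median log2 ratio of -1.74 and -0.40. Cnn1 was the gene higher in both, 10.1-fold (6.8 to 15.8) and 34.2-fold (21.1 to 59.9), and its log2 ratio went from 3.30 to 4.98 without long-term pool 2 and from 4.95 to 6.11 without short-term pool 4. Desmin (Des), the muscle filament, was at 0.34 and 0.189 CPM against 323 and 223 CPM, and the enteric smooth muscle actin Actg2 at 1.79 and 1.43 against 87.6 and 303 CPM. For Actg2 the long-term log2 ratio of -4.99 was -4.35 without pool 3, and the short-term one of -6.97 was -4.90 without pool 4 and -7.69 without pool 2.

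Fibroblast genes were split by gene. Of 12 measured in each experiment, 3 were higher (Dcn, Fbln2 and Serpinf1) and 7 and 8 lower, with a median log2 ratio of -3.87 and -3.51. Dcn exceeded my_CAF by 6.23-fold (log2 ratio 2.63, or 3.76 without long-term pool 1) and 11.6-fold and Serpinf1, a secreted inhibitor of vessel growth, by 6.22-fold and 5.99-fold. The fibrillar collagen Col1a1 was at 10.8 and 5.41 CPM against 1208 and 1616 CPM. Basement membrane divided by chain: of 19 measured, 7 and 6 were higher, among them Lama3 and Lamb3, and 9 and 9 lower, among them Col4a1 and Col4a2, with Col4a1 4.64-fold and 5.23-fold below my_CAF.

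Epithelial lists were higher than in my_CAF nearly throughout, a direction largely set by the minimum of 10 CPM. The basal, junction and luminal lists (16, 25 and 22 genes) had 13 and 13, 15 and 15, and 7 and 8 genes at 10 CPM in Malign_2. In my_CAF they had 2 and 6, 1 and 3, and 1 and 2. Genes measured through Malign_2 alone could be called only as higher. Of 13 basal genes measured 12 were higher in each experiment (median 6.46 and 5.79), of 15 simple keratin and junction genes 12 and 13 (median 4.65 and 4.54, with Tjp1 lower in the short-term experiment at a log2 ratio of -2.01, a call lost without pool 1 and without pool 3, where the ratio was -1.97), and of 7 and 8 luminal genes all. Even Krt18, low beside Malign_3, was at 87.5 and 37.3 CPM against 7 and 4 UMIs in my_CAF, a long-term log2 ratio of 3.08 that was 4.00 without pool 6. Of 10 cartilage and neural crest genes 8 and 7 were higher, among them the secreted protein Mia at 3044 and 3030 CPM against 6.74 and 20.9 CPM, with log2 ratios of 8.62 (9.52 without long-term pool 6) and 7.11 (7.71 without short-term pool 1). The metal-binding metallothionein Mt1 was 16.4-fold and 14.2-fold higher. The plot of lists shows the members of 12 lists in both comparisons.

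**Figure D2:**
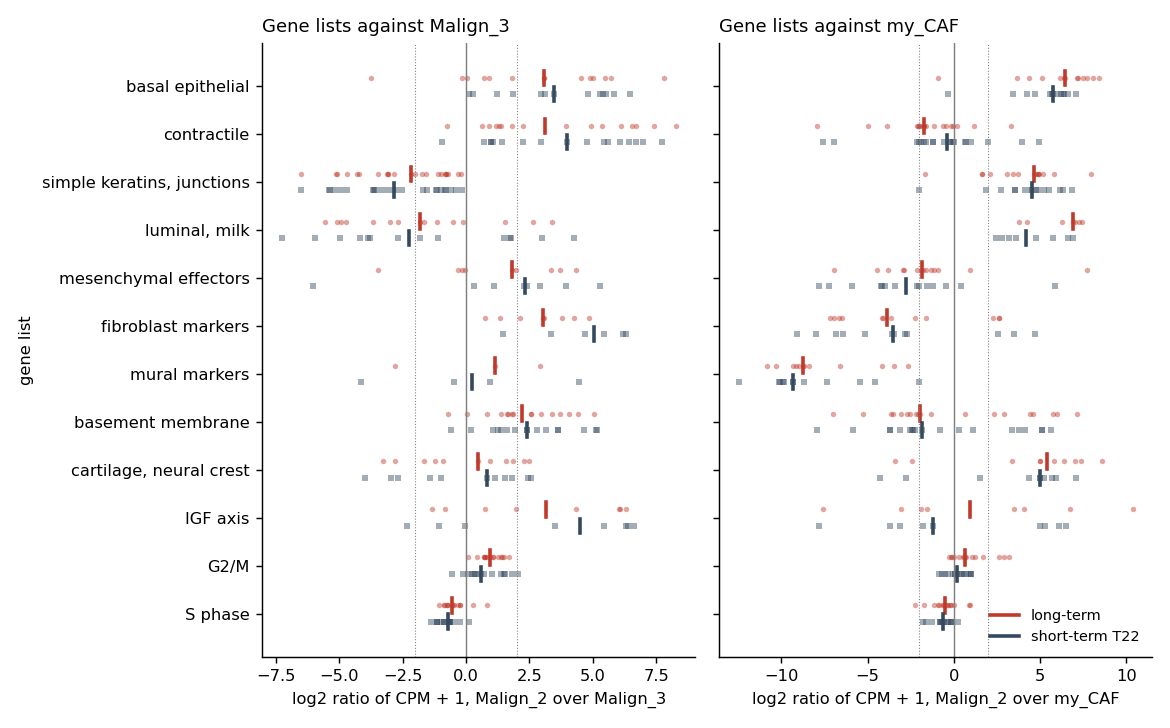
Log2 ratio of (CPM + 1) of the measured members of 12 gene lists, Malign_2 against Malign_3 in the left and against my_CAF in the right panel, with circles for the long-term and squares for the short-term T22 experiment, a vertical bar at each list's median and dotted lines at -2 and 2. Contractile and basal lists lie to the right against Malign_3 (medians 3.10 and 3.97, 3.08 and 3.47) and simple keratins and junctions to the left (-2.17 and -2.82), while mural genes lie far to the left against my_CAF (-8.73 and -9.35).

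Markers of other cells were also found in Malign_2. The 12 leukocyte genes summed to 733 CPM in long-term Malign_2 cells (203 to 2401 by pool) and to 121 CPM (90.1 to 155) in the short-term ones, with 0 of the 12 at zero, against 439 and 94.0 CPM in Malign_3 and 337 and 333 CPM in my_CAF. The largest part of the long-term sum was S100a9, at 272 CPM, above the long-term level of Pdpn (208 CPM). This S100a9 level came from few cells. With cells thinned as above, 96.6% of long-term Malign_2 cells had no S100a9 UMI, while 47.7% had a Pdpn UMI. Of these 1352 cells, 9 had at least 10 UMIs of the neutrophil genes S100a8 and S100a9 and held 96.2% of those UMIs. None of the 12 leukocyte genes was called in either comparison. The 8 endothelial genes summed to 32.8 and 50.3 CPM in Malign_2, 12.4 and 17.7 CPM in Malign_3 and 586 and 770 CPM in my_CAF. The only 1 with 10 CPM in Malign_2 was Epas1, higher than in Malign_3 (log2 ratio 2.16 and 2.10, and in the short-term experiment 1.88 without pool 1 and 1.98 without pool 4), and all 4 measured against my_CAF were lower. Genes of adipocytes, skeletal muscle and Schwann cells summed to 2.85 and 6.81 CPM, with 0 of 8 measured. The part of these cells' RNA in the differences was not tested.

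To see what set the cluster apart from the whole tissue, genes were sought that were at least 4-fold higher in Malign_2 than in every other cluster with 20 cells, a question added after values had been seen. There were 87 of 7118 (1.22%) against 21 clusters in the long-term and 120 of 7997 (1.5%) against 18 in the short-term experiment, and 75 in both. The next highest cluster was Malign_3 for 33 of the 75 in the long-term and 28 in the short-term experiment, i_CAF for 7 and my_CAF for 1 in the long-term experiment. Ecrg4 was at 11158 and 9728 CPM against 563 and 492 CPM in i_CAF. Cck, at 2315 and 3643 CPM, had 120 and 166 CPM in Malign_3. Krt5 had 36.1 CPM in the next long-term cluster, CD14-PF4, and the uncharacterized gene Gm32585 had 351 and 265 CPM against 7.60 and 11.9 CPM in the same one.

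The 75 held 5 genes of the basal list, 1 contractile gene (Cnn1), 2 luminal, 2 basement membrane, 2 growth factor and 2 receptor kinase genes, and 7 of the list chosen on these cells. No fibroblast, mural, mesenchymal, simple keratin or cell cycle gene of the lists was among them. In long-term Malign_2 cells 8, 2, 8 and 15 genes of the first 4 lists had 10 CPM, as did 11 S-phase and 15 G2 and mitosis genes. At the overall long-term share of 1.22%, the absence of lists of this size is no result about them. Egfl6, a secreted epidermal growth factor-like protein, had 132 and 80.7 CPM against 4.63 and 7.75 CPM in i_CAF, the dopamine receptor gene Drd4 91.2 and 53.1 against 4.31 and 2.98 CPM, and Dsc3, a desmosomal cadherin of stratified epithelium, 132 and 283 against 8.55 and 19.8 CPM. None of the 4 marker genes was among the 75. Tagln was higher in my_CAF in both experiments (2834 and 1420 CPM) and in i_CAF in the short-term one (679 CPM). For Acta2, my_CAF was the only cluster within 4-fold of Malign_2 in both experiments. For Pdpn this held for i_CAF in both (251 and 135 CPM) and for CD14-IL1B in the long-term experiment (62.1 CPM), and for Epcam it held for Malign_3 and CD14-PF4 in both and for CD14-IL1B in the long-term experiment, with B cells (187 CPM) at the limit in the short-term one.

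**Figure D3:**
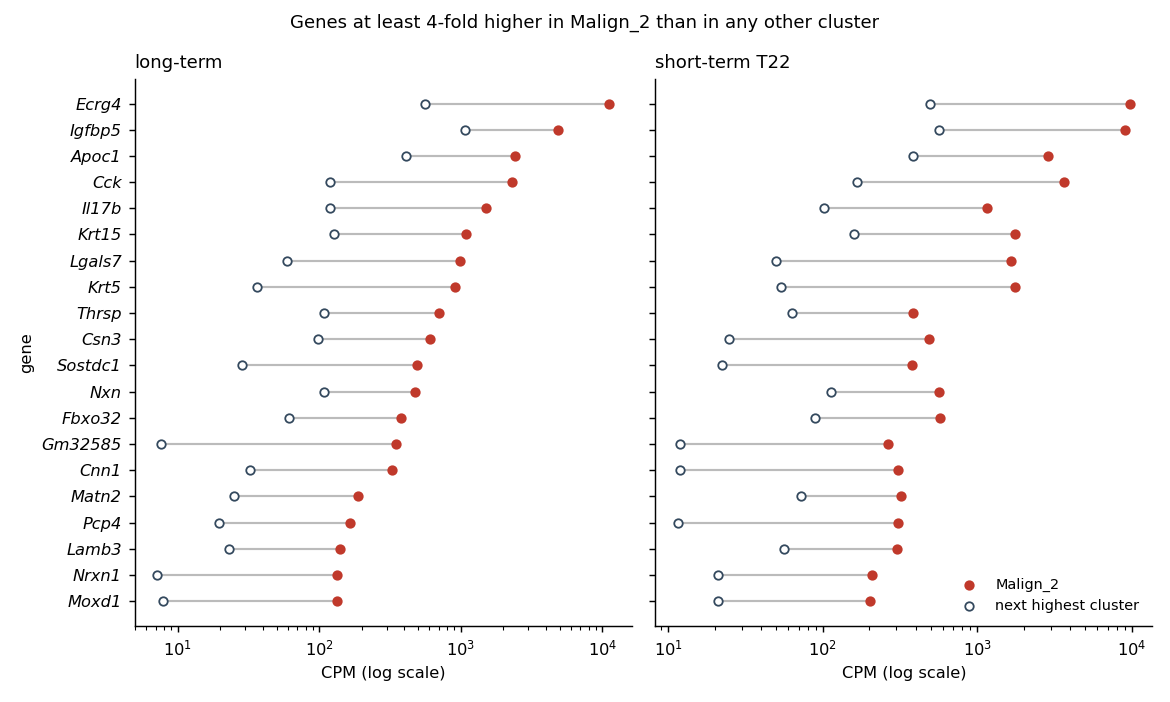
Level in CPM (log axis) of the 20 most abundant of the 75 genes that were at least 4-fold higher in Malign_2 than in every other cluster in both experiments; filled symbols are Malign_2 and open symbols the next highest cluster, for the long-term and short-term T22 experiments. Ecrg4 leads at 11158 and 9728 CPM, and each filled symbol is at least 4-fold above its open one.

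Malign_2 cells were not alike in Acta2. At 3000 UMIs, 178 long-term cells (13.2%) had no Acta2 UMI, 205 had 1 to 4, 369 had 5 to 19 and 600 (44.4%) had 20 or more, and in the short-term pools the numbers were 248 (14.3%), 327, 658 and 503 (29.0%). These ranges were set after values had been seen. Tagln went from 0.0449 mean UMIs in the cells without Acta2 to 5.20 in the highest range (short-term 0.0726 and 4.94), Krt5 from 1.12 to 4.20 (2.60 and 7.89) and Krt14 from 3.33 to 6.78 (4.96 and 8.14). Epcam fell along the same ranges, from 4.12 through 3.86 and 3.09 to 1.82 UMIs and from 3.36 through 2.99 and 2.24 to 1.35, which compares with 8.39 and 6.41 in Malign_3. The secreted protease inhibitor Cst3 went from 50.9 to 6.70 and from 35.8 to 4.50, and Wfdc18 from 51.7 to 21.4 and from 53.2 to 14.4.

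The cells without an Acta2 UMI did not match Malign_3 in every gene. Their Krt18 was 0.556 and 0.347 UMIs, found in 38.2% and 19.4% of them, against 9.39 and 4.95 UMIs and 99.1% and 95.0% of Malign_3 cells. Their Cst3 lay above that of Malign_3, 9.46 and 4.04 UMIs, and their Wfdc18 below it, 99.7 and 97.2. Pdpn hardly moved, at 0.635, 0.659, 0.713 and 0.667 UMIs over the 4 long-term ranges and 0.702, 0.661, 0.682 and 0.608 over the short-term ones, while Malign_3 had 0.043 and 0.0596.

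**Figure D4:**
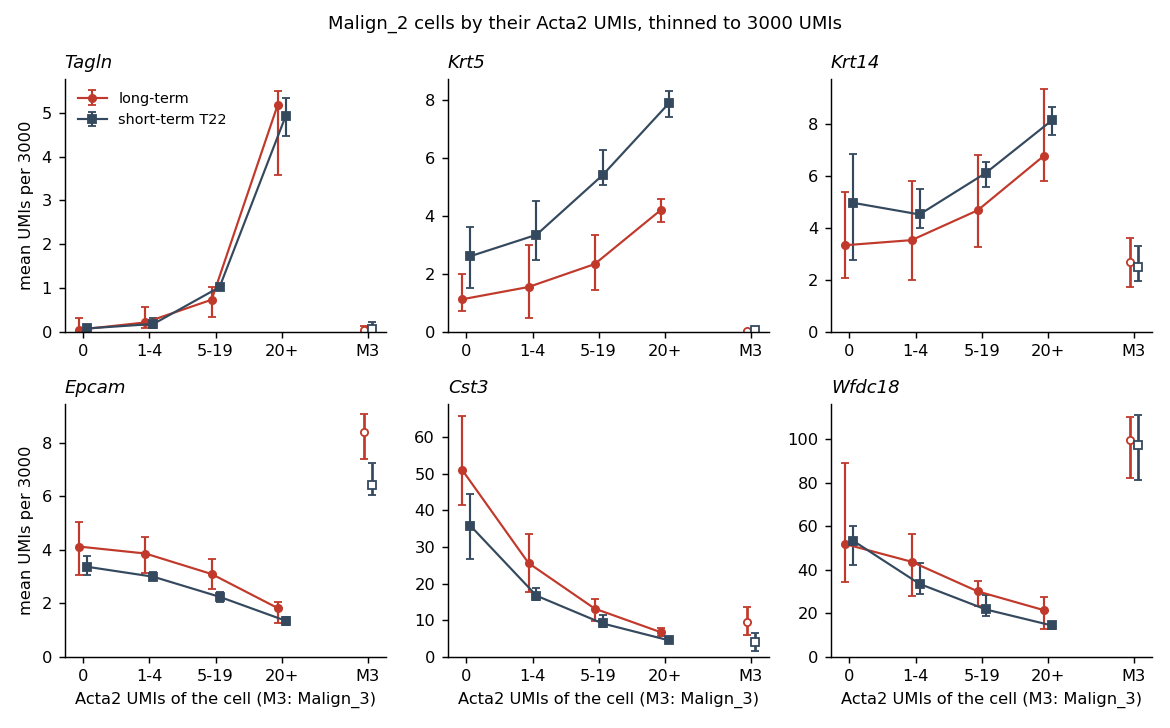
Mean UMIs per cell thinned to 3000 UMIs (vertical axis) of Tagln, Krt5, Krt14, Epcam, Cst3 and Wfdc18 in Malign_2 cells with 0, 1 to 4, 5 to 19 and 20 or more Acta2 UMIs (horizontal axis), with open symbols for all Malign_3 cells and bars from the lowest to the highest pool, for both experiments. Tagln, Krt5 and Krt14 are highest at 20 or more Acta2 UMIs, and Epcam, Cst3 and Wfdc18 in cells without Acta2.

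Rank correlations over cells described the same axis. They were computed within pools, whose cells share a library, over 933 genes in 1352 long-term and 967 genes in 1736 short-term cells thinned to 3000 UMIs, and 36 and 33 genes had a median over pools above 0.3 with Acta2. The 30 highest of each experiment shared 26 genes, led by Myl9 (0.78 and 0.69), Tagln (0.73 and 0.71), Tpm2 (0.72 and 0.77) and Cnn1 (0.71 and 0.66), all of the contractile apparatus. Krt5 (0.48 and 0.48), Krt14 (0.37 and 0.36), Igfbp2 (0.39 and 0.38) and Igfbp5 (0.39 and 0.36) were also among them. Fewer genes, 8 and 5, passed the same limit on the negative side. The 30 lowest shared 19, led by Cst3 (-0.62 and -0.51), the growth factor Ptn (-0.44 and -0.46), Epcam (-0.38 and -0.34), Sat1 (-0.38 and -0.33), a polyamine-acetylating enzyme, and Ehf (-0.37 and -0.36), an epithelial factor of the Ets family. Pdpn, at 0.04 and -0.01, and the mitosis gene Top2a, at -0.03 and 0.02, showed no such relation.

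Beyond sampling, the most variable genes were of several kinds. The excess of the variance over the Poisson expectation, as a fraction of the squared mean, had a median of 0.0986 over 934 long-term and 0.122 over 968 short-term genes. The long-term value was highest for the neutrophil genes S100a8 (87.0) and S100a9 (85.8), which had no UMI in 98.2% and 96.6% of cells, and next for Ndufa4l2 (9.09). Among genes that were also in the short-term top 50, 15 are given here. Slpi, a secreted protease inhibitor, had the highest long-term value of these, 6.42, and 7.60 in the short-term cells, and 53.3% and 53.9% of cells had no UMI of it. Fabp4 (3.74 and 2.52), a fatty acid carrier, Apod (3.52 and 2.41), a lipocalin, and Csn3 (3.02 and 3.75) followed together with Tagln (3.19 and 2.78) and the mitosis gene Cdca8 (3.62 and 3.11). The rest of the 15 were Fst, Ly6a, Smc2, Cst3, Ccnd1, Ccn2, Ifi27l2a, Ier3 and Zfp36. The median correlation of Slpi over pools was 0.00 and 0.02 with Tagln, and 0.14 (0.07 to 0.30 by pool) and 0.27 (0.09 to 0.31) with Cst3.

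The share of T22 malignant cells that were Malign_2 differed between the experiments. In the short-term pools it was 86.0%, 91.2%, 89.5% and 88.9%, and 88.8% (87.4 to 90.2) in all. In the long-term pools it was 64.0%, 65.7%, 62.1%, 64.8%, 54.5%, 58.3%, 54.5% and 50.8%, and 59.8% (57.8 to 61.9) in all, so the highest long-term pool was below the lowest short-term pool. Long-term pools 1 to 4 all lay above pools 5 to 8. The same pools differed in the median mitochondrial share of Malign_2 cells, 0.789% to 0.855% against 1.18% to 1.28%, and in the number of B cells, 5 to 25 against 53 to 79, and the part of this in the share was not tested. The labels do not say what sets these pools apart, and experiment, treatment time, tumors and capture cannot be told apart here.

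**Figure D5:**
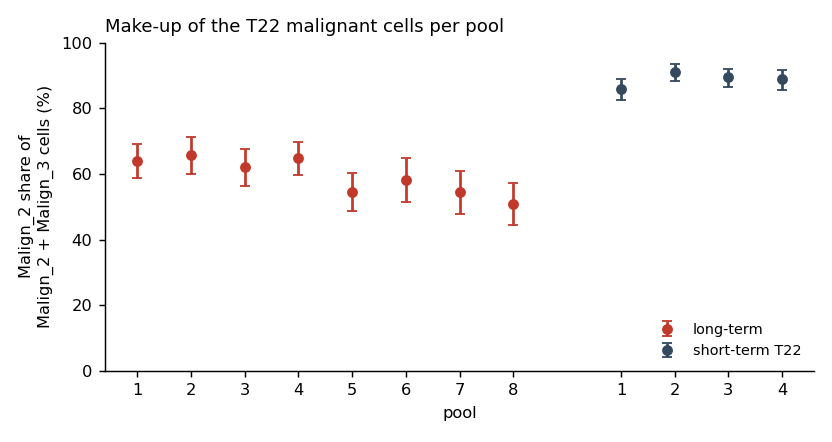
Percent of T22 malignant cells (Malign_2 and Malign_3) that were Malign_2 in each pool, with exact 95% binomial intervals that cover counting error only. The 4 short-term T22 pools lie between 86.0% and 91.2% and the 8 long-term pools between 50.8% and 65.7%.

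Few genes within Malign_2 differed by 4-fold between the experiments. Of 8160 genes, 22 were at least 4-fold higher in the long-term cells with no overlap of pools (0.27%) and 16 lower (0.196%), and the median log2 ratio over all genes tested was -0.31. No gene of the basal, junction, luminal, contractile, fibroblast or basement membrane lists was among the 38. Of the other lists, 2 of 9 measured mesenchymal effectors (Fn1 and Spp1), 2 of 18 interferon and antigen presentation genes (Isg15 and Irf7), 2 of 17 myeloid signals (Cxcl2 and Spp1), 1 of 3 mural genes (Ndufa4l2) and 1 of 13 hypoxia genes (Egln3) were higher, and 1 of 15 immediate early genes (Fosb) was lower. The call of Egln3 sits at the threshold of 2, with a log2 ratio of 2.0001. Fn1, the gene of fibronectin, was at 36.5 against 1.40 CPM. Smaller shifts were present: the basement membrane list summed to 1733 CPM (1644 to 1913 by pool) in the long-term and 3928 CPM (3766 to 4237) in the short-term cells, with a median log2 ratio of -1.14 over 16 measured genes, and the basal list to 6097 CPM (5617 to 6731) and 9536 CPM (8986 to 10414), with a median of -0.75 over 13. In neither list did the ranges of the sum overlap, but this was not particular to them. The IGF list (6343 to 7255 CPM long-term, 10708 to 11880 short-term) and the Notch list (375 to 460, 865 to 905) did not overlap either. Nor did the hypoxia list, which was higher in the long-term pools (3101 to 3489, 1979 to 2028). The Wnt, receptor kinase, PARP and repair, p53 target and transition factor lists and the list named by the study were higher in the short-term pools without overlap. The antigen presentation and interferon list and the leukocyte list were higher in the long-term pools without overlap. All others of the 29 lists overlapped, among them the contractile list (10732 to 16077, 9440 to 12354). The interferon-induced Isg15 had 179, 262 and 471 CPM in the lowest, median and highest long-term pool and 47.8, 46.1, 48.9 and 49.4 CPM in the short-term pools, 5.88-fold (5.61 to 6.17) higher, and Irf7, a factor of the same response, was at 58.7 against 11.5 CPM. Spp1, the gene of osteopontin, had 30.9, 43.5 and 492 CPM in the long-term pools and 5.64 CPM in all short-term cells, 18.9-fold (16.6 to 21.5), and its log2 ratio of 4.01 was 3.18 without long-term pool 6. Ctsk, a bone and stromal protease, was called through long-term pool 5 alone, since its log2 ratio of 4.24 was 1.56 without it. Fosb, an immediate early gene, was lower, with 35.6, 78.6 and 132 CPM in the long-term pools against 347, 369, 315 and 332 CPM, a 4.71-fold (4.48 to 4.95) difference.

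The same genes were also followed in other cells of the pools. The direction was the same for 21 of the 22 higher genes in Malign_3 and 19 in non-malignant cells, and for 15 and 16 of the 16 lower genes. These counts and the 4-fold counts below were not set beside the shares of all genes. No rule on pools was applied to them, and they are descriptive. Non-malignant cells came from T22 and T127 tumors in the long-term pools and from T22 tumors alone in the short-term ones, so their make-up differs. Of the 22 higher genes, 13 were also at least 4-fold higher in long-term Malign_3 cells and 9 in all non-malignant cells summed, and of the 16 lower genes 12 and 10 were. Isg15 was at 349 against 51.7 CPM in Malign_3 and 773 against 169 CPM in non-malignant cells. The hemoglobin gene Hbb-bs was at 682, 1218 and 2052 CPM in the long-term pools of Malign_2 and 110 CPM in all short-term cells, with 2091 against 0.441 CPM in non-malignant cells. The long-term level was 10.6-fold (10.3 to 11) the short-term one, and the log2 ratio went from 3.4 to 9.94 without short-term pool 4, which held nearly all of its short-term UMIs. Cxcl2, a neutrophil attractant made by myeloid cells, was also among the 22, at 108 against 6.98 CPM, and the leukocyte list summed to 733 against 121 CPM. The part of RNA from other cells in these 22 was not tested.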

How the data were processed

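Single-cell RNA libraries of 16 pools were used, and for each pool the table of raw UMI counts of 32285 genes per cell and the cluster name of each cell. According to the methods and labels the authors made these counts with Cell Ranger 6.0.0 on GRCm38, removed cells with under 1000 genes or over 20% mitochondrial UMIs, removed doublets with Scrublet, set malignant cells apart by copy number, and named the clusters. As deposited, 19.7% of long-term and 15.8% of short-term T22 cells have under 1000 genes, and the lowest cell has 402 and 484. The reporting summary of the study gives a lower minimum of genes than its methods, which no deposited cell falls under. The matrices before this filtering and the normalized tables were not used. Pools summed to 34755906 to 44032925 UMIs (long-term) and 40270841 to 42436039 UMIs (short-term T22).

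Counts were summed per pool and cluster and given as CPM. Log2 ratios use a pseudocount of 1 CPM, a minimum of 10 CPM in either group and a threshold of 2 with 1 sign in every pool of at least 20 cells of both clusters. Between experiments every long-term pool had to lie on the same side of every short-term pool. Intervals for levels (Poisson), ratios (conditional binomial) and shares (Clopper-Pearson) cover counting error only, and no test between groups was run, since no file used here links cells to tumors. For shares, correlations and variation each cell was thinned to 3000 UMIs. Variation used genes with a mean of at least 0.5 UMIs in pools of at least 50 cells.

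The members, the 29 gene lists (475 genes) and the comparisons were chosen with earlier results of these data known. Genes named are the 4 markers, the 12 largest ratios in each direction among genes called in both experiments, called members of lists, up to 4 members per list with the highest CPM, and the 15 most variable genes that were also among the 50 most variable in the short-term cells. Other named genes, the search against every other cluster, the Acta2 ranges and correlations and the levels of S100a8 and Hbb-bs were added after values had been seen. Alternatives tried were a pseudocount of 10 CPM, a minimum of 50 CPM or none, all barcode copies, the mean of per-cell CPM, no mitochondrial and ribosomal genes, a minimum of 1000 genes per cell, the top 5% of cells left out, thinning to 1000 UMIs or none, and each pool left out. The steps were tested on simulated data. Computation was in Python 3.11.15 with pandas 2.3.3, numpy 2.4.6 and scipy 1.17.1, and plots were drawn with matplotlib 3.10.9. No sequences are printed, because no mouse reference of the build was used here.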

Additional observations from a re-analysis of the deposited data

Results flagged for a closer look

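Within groups of 4 or 8 pools, 4 of 38 values had a highest pool that stood apart by Dixon's criterion at 95%. The criterion's rate of about 1 in 20 holds for normally distributed values of genes chosen beforehand. S100a8 and Hbb-bs were added after values had been seen, so that rate does not apply here and the flags are descriptive. Krt14 was at 2255 CPM in 1 short-term pool of Malign_2, with the next at 2037 CPM. Hbb-bs was at 458 CPM in 1 short-term pool and at most 0.329 CPM in the others. S100a8, a neutrophil gene, was at 1060 CPM in 1 long-term pool and at most 373 CPM in the others. At 3000 UMIs, 9 of 1352 long-term Malign_2 cells had at least 10 UMIs of S100a8 and S100a9 and held 96.2% of those UMIs, and 1 of 1736 short-term cells held 74.3%. Ptprc, the common leukocyte gene, was at 13.2 CPM in 1 short-term pool and at most 8.63 CPM in the others.

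Against my_CAF the direction of Acta2 and Hbb-bs differed between the experiments, and neither difference was tested. The log2 ratio of Acta2 was -0.032 in the long-term experiment, lower in both pools with 20 my_CAF cells, and 0.64 in the short-term experiment, higher in all 4 pools. The log2 ratio of Hbb-bs was -0.84 and 6.79, and the short-term value rests on the 1 pool at 458 CPM, since the others had at most 0.329 CPM and my_CAF no UMI.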

How the results depend on the processing

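Counts of called genes moved most with the treatment of low levels. With a pseudocount of 10 CPM the higher and lower genes numbered 140 and 110 (long-term) and 202 and 144 (short-term) against Malign_3, 331 and 424, and 377 and 480, against my_CAF, 7 and 3 between the experiments, and 39 against every other cluster. With a minimum of 50 CPM they numbered 155 and 115, and 223 and 154, against Malign_3, 325 and 431, and 371 and 491, against my_CAF, and 7 and 6 between the experiments. With no minimum the long-term higher genes against my_CAF were 1128. With the top 5% of cells left out, 15 genes were higher and 13 lower between the experiments, against 22 and 16. Of these, 14 and 11 were among the main calls.

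Shares of Malign_2 cells with a UMI depend on depth. Without thinning and at 1000 UMIs they were 97.9% and 54.1% (long-term) and 99.2% and 48.0% (short-term) for Epcam, 94.0% and 78.4%, and 96.2% and 76.9%, for Acta2, 66.1% and 32.8%, and 71.0% and 29.1%, for Tagln, 91.3% and 18.7%, and 96.3% and 19.7%, for Pdpn, 96.8% and 66.3%, and 98.8% and 72.5%, for Krt14, and 92.0% and 39.9%, and 95.4% and 34.8%, for Epcam with Acta2. For Mki67 they were 28.0% and 4.81%, and 44.2% and 13.4%, and for Top2a 24.7% and 6.88%, and 37.2% and 10.7%. For Ptprc they were 6.36% without thinning (long-term) and 8.01% and 0.691% (short-term). Without the top 5% of cells Mki67 was at 19.3% (short-term) and Top2a at 9.22% and 11.5%. At 1000 UMIs 8 of the 15 most variable genes were again among the 15.

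Leaving out each pool gave 339 to 351 higher and 300 to 309 lower genes (long-term) and 469 to 487 and 371 to 400 (short-term) against Malign_3, 740 to 768 and 837 to 902, and 792 to 816 and 965 to 986, against my_CAF, and 19 to 25 and 14 to 18 between the experiments. Of 9227 recomputed values of 658 gene ratios, 8730 stayed called or stayed uncalled, 497 were no longer called, 0 were newly called and 0 changed sign while called. The sign of ratios that stayed uncalled was not checked. Nearly all of the 658 ratios had been picked because they were called, so 0 newly called follows from that choice. Over all genes new calls did appear: with no minimum the long-term higher genes against Malign_3 went from 346 to 449. With at least 1000 genes per cell no long-term pool kept 20 my_CAF cells, so that comparison gave no call. No paired analysis was possible because the values come from no test. Clusters were compared pool by pool within an experiment only through the rule on 1 sign.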
